A study of Mus musculus with 2 samples.

Results

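The AP-1 and immediate early genes of mouse back skin were followed through 2 single-cell libraries, 1 of control skin and 1 of skin with inducible miR-205. The set held 10 genes of the 31053 in the feature table, chosen by symbol, and each matched a single gene identifier. They were Fos, Fosb, Fosl1, Jun, Junb, Jund, Egr1, Atf3, Ier2 and Ier3. No measured value entered the rule, but the members were chosen with earlier results of these data known.

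AP-1 is a dimer of leucine zipper proteins that binds DNA, and it pairs a Fos family protein with a Jun family protein or joins 2 Jun family proteins. Immediate early genes are transcribed within minutes of growth factor, stretch, wounding or stress signals, without new protein synthesis, and their mRNAs are short-lived. In keratinocytes, AP-1 is known for its part in wound responses, inflammation and differentiation. Enzymatic dissociation of tissue is also known to switch on many of these genes.

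Mice of both groups carried a K14-H2BGFP allele, a nuclear green reporter under a keratin 14 promoter, and back skin was taken at postnatal day 53. In the induced group, the Krt14-rtTA activator, made in keratin 14-expressing epithelial cells, drove a pTRE2-miR-205 transgene under doxycycline. Doxycycline was fed for 4 days from day 49. The protocol has both groups on doxycycline, whereas another label calls the control untreated. The labels give the strain as C57BL/6, while the methods made the transgenic line in FVB mice. Skin was digested with collagenase and then trypsin, and live epidermal, follicular and dermal cells were sorted and mixed at 3:5:2. The question was what raised miR-205 changes in the resting follicle, and here how these 10 genes were set in each cell type. The labels give no animal numbers, and 1 library per group leaves no spread between animals, so no difference between the libraries below has a test or a replicate check.

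The control library held 55465594 unique molecular identifiers (UMIs) in 4545 barcodes and the induced library 49733560 in 4264. The cell filter kept 3936 and 3628 cells, with a median of 12198.5 and 11752.5 UMIs and a median mitochondrial share of 4.94% and 4.95%. The libraries shared 11 barcodes, 5 of them among kept cells of both. The assay does not count mature miR-205, and the host transcript of the endogenous gene, Mir205hg, stood at 102.9 CPM (a gene's UMIs scaled to the same total of UMIs in every cell type, or counts-per-million) in control cells and 105.6 in induced cells. By type it went both ways, at 262.6 and 181.2 CPM in HF-SC-like, 369.3 and 228.4 in sebaceous gland-like, 42.0 and 66.6 in IFE basal-like and 106.0 and 115.6 in HG-like cells. Whether the transgene was expressed in a given cell was therefore not measured.

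Cell types were set in each cell by UMIs of defining markers, and a type is called "like" the cell it is named for. Hair follicle stem cell-like cells (HF-SC-like) carried at least 3 UMIs of Cd34 and Krt24, and there were 404 in the control library and 491 in the induced one. Hair germ-like cells (HG-like) carried at least 2 UMIs of Lgr5 and at most 1 of Cd34 and Krt24, and there were 85 in each library. Outside the gate genes themselves, 4 of the listed markers were at least doubled over other cells in HF-SC-like cells (Lhx2, Krt15, Sox9 and Tbx1) and 5 in HG-like cells (Gli1, Lef1, Msx2, Fgfr1 and Hoxc13). In all, 11 types had at least 50 cells in each library. The other 9 were inner bulge-like, upper hair follicle-like, sebaceous gland-like, basal and suprabasal interfollicular epidermis-like (IFE), cycling keratinocyte-like, dermal papilla-like, dermal fibroblast-like and antigen-presenting-like cells. In these 9, between 1 and 3 markers outside the gate were doubled. The inner bulge-like name rests on its gate genes Krt75 and Fgf18, since Krt6a alone of the other 4 listed markers was doubled, and these cells held 10924 and 16304 CPM of the hair follicle stem cell panel, beside 11409 and 13971 in HF-SC-like cells.

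The induced microRNA is shown with its seed, bases 2 to 8, in capitals, because the seed decides which mRNAs it can pair with. The sequence is from RefSeq (GRCm38.p6, chr1:193507503-193507524, minus strand).
miR-205-5p: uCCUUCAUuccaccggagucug
The 7 letters that pair with this seed, ATGAAGG, were searched in each gene's longest 3′ UTR. Of the members, 9 were searched and Egr1 was left out. Among these 9, Atf3 alone held the letters, as 1 copy. Among all 19915 genes with a 3′ UTR in the older NCBIM37 annotation, 10.4% held the letters. The AU-rich pentamer ATTTA, the core of elements known to shorten the life of early response mRNAs, occurred in 8 of the 9 (all but Ier2) and in 61.3% of all genes. Ier3 held 5 copies, and Fos and Jun held 4 each. These are matches of letters and do not show a working site.

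The bases just before the annotated start of 4 members are shown, because these members share the letters TGACG, the core of the site bound by CREB and ATF proteins. Capitals mark TGACG on either strand (CGTCA where it lies on the opposite strand) and TATAA. The sequences run 5′ to 3′ on the gene's strand and are from RefSeq, GRCm38.p6. They lie at chr12:85473740-85473889 (plus) for Fos, chr7:19310046-19310145 (minus) for Fosb, chr8:84978749-84978868 (minus) for Junb and chr1:191183334-191183433 (minus) for Atf3.
Fos: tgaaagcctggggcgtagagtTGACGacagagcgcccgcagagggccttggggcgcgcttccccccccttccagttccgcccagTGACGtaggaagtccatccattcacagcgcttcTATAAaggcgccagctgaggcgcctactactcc
Fosb: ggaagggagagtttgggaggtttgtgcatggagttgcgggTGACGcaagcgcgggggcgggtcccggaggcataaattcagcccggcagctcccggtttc
Junb: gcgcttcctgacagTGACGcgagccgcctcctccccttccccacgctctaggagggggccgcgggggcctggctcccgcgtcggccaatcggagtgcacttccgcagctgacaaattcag
Atf3: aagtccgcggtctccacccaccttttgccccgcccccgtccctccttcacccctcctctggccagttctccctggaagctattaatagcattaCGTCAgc
Of the members, 7 were searched in the promoter table, and Fosl1, Ier2 and Egr1 were not. Not every chromosome was included in this search. TGACG on either strand lay within 250 bases before the start in 4 of the 7, against 17.8% of the 32851 promoters searched. In Fos it lay 66 to 62 bases before the start, with a further copy at 129 to 125 and TATAA at 33 to 29. Both strands were searched for every motif. The letters TGANTCA cannot hold TGACG and include the consensus bound by AP-1 itself. They were in none of the 7 windows and in 6.75% of the promoters searched. TATAA was in 2 of the 7, Fos and Ier3, and in 22.8% of the promoters searched. Jun, Jund and Ier3 held no TGACG in this window. No binding was measured, so these letters describe the windows only.

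Levels differed more between cell types than between the libraries. Summed over the 10 members, HF-SC-like cells held 17529 CPM in the control library and 18284 in the induced one. HG-like cells followed in the induced library at 14325 but held 8761 in the control. Antigen-presenting-like cells were lowest, at 3363 and 3221. By the mean of both libraries, HF-SC-like cells had the highest level of 8 of the 10 members, the exceptions being Ier2 and Ier3. Within a single library this order was less firm: in the induced library HG-like cells led for Fos, dermal papilla-like cells for Junb and inner bulge-like cells for Atf3, and in the control library dermal fibroblast-like cells led for Jund.

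**Figure D1:**
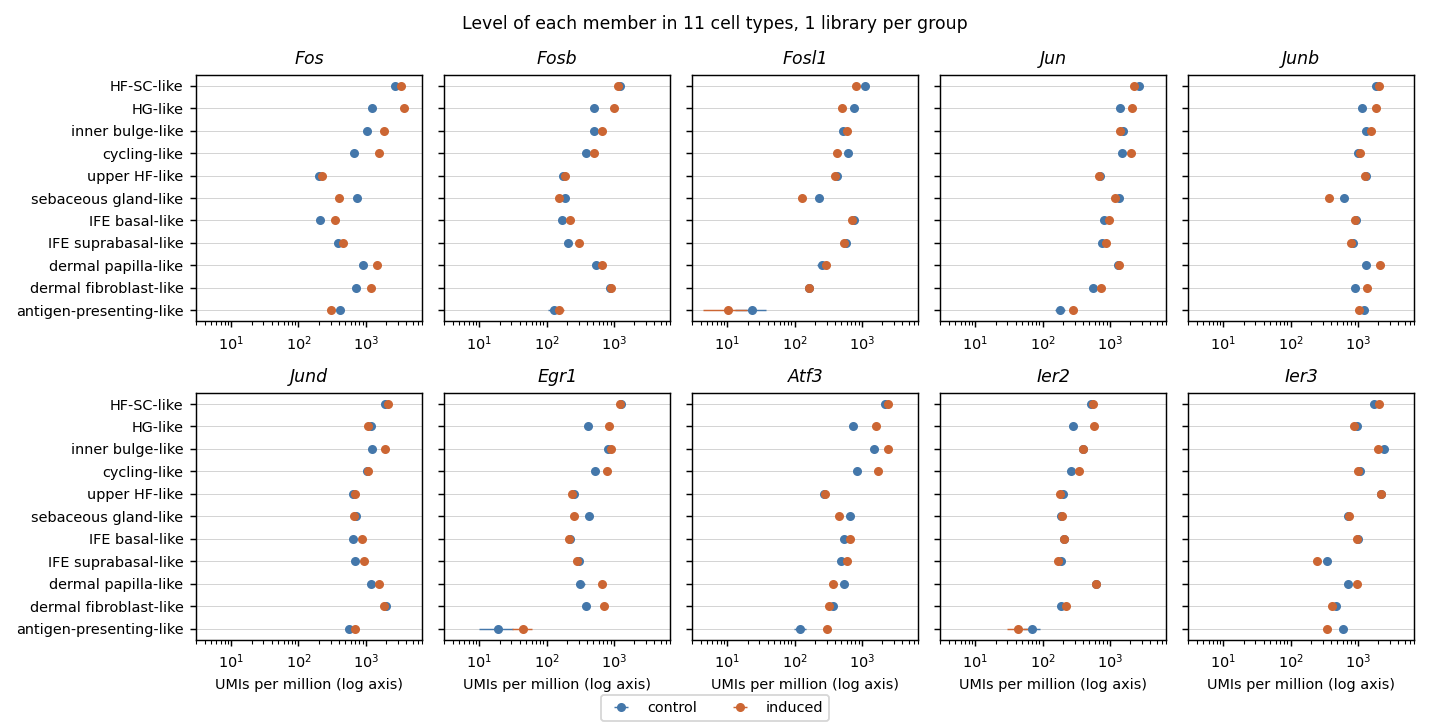
Level of each of the 10 members (CPM, log axis) in 11 cell types, with 1 point for the control library and 1 for the induced library and exact Poisson 95% intervals, which are often smaller than the points. HF-SC-like cells sit at or near the right of most panels, while the 2 points of HG-like cells lie apart for Fos, Fosb, Egr1, Atf3 and Ier2.

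Fos, whose mRNA is made and lost quickly after a signal, had the widest range among keratinocyte types. Its level was 2769 CPM in control and 3379 in induced HF-SC-like cells, against 200.6 and 227.4 in upper hair follicle-like cells. HF-SC-like cells of the control library held 13.4-fold more Fos than IFE basal-like cells of the same library (interval 12.7 to 14.1, counting error only). In all 10 neighbouring pairs of the Fos order, top and bottom included, the ranges of the 2 library values overlapped between the types. Within each library types could still lie apart. HG-like cells held more Fos than inner bulge-like cells, at 1252 against 1047 CPM in the control library and 3762 against 1870 in the induced one. The control order rests on few cells. There the top 5 cells held 72.7% of the HG-like and 55.4% of the inner bulge-like Fos UMIs.

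Fosb, a close relative of Fos with a similar activation domain, followed much the same order at lower range. It stood at 1226 and 1156 CPM in HF-SC-like cells and at 129.0 and 153.4 in antigen-presenting-like cells. By the mean of both libraries, dermal fibroblast-like cells came next for Fosb, at 883 and 925, while induced HG-like cells alone stood at 999.9.

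Fosl1 encodes Fra-1, a Fos family protein without a strong activation domain of its own that is usually made later in the response. It reached 1107 and 837 CPM in HF-SC-like cells, and IFE basal-like cells came next at 781 and 718. It was nearly absent from antigen-presenting-like cells, at 22.9 and 10.1 CPM. After each cell was thinned to 5000 UMIs, 8.06% of 62 control and 3.03% of 66 induced antigen-presenting-like cells had a Fosl1 UMI. How much of that share came from free RNA was not measured. The share was 93.4% and 91.6% in IFE basal-like cells. Before thinning it was 14.5% and 5.41% in antigen-presenting-like cells (median depth 9234 and 10174.5 UMIs) and 98.2% and 97.9% in IFE basal-like cells (median depth 16162.5 and 17405).

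The share of each gene in the Fos family's own UMIs, with Fosl2 added as the fourth gene, changed with the cell type. Fosl1 made up 62.1% and 50.9% of these UMIs in IFE basal-like cells and 44.9% and 40.4% in upper hair follicle-like cells. In HF-SC-like cells its share was 20.9% and 15.05%, and Fos made up 52.2% and 60.7%. Dermal fibroblast-like cells leaned to Fosb in the control library, at 45.3%, and antigen-presenting-like cells held the largest Fosl2 share of the 11 types, at 30.8% and 36.9%. In HG-like cells, Fos made up 47.0% in the control library and 68.8% in the induced one, and Fosl1 went from 28.5% to 9.27%.

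**Figure D2:**
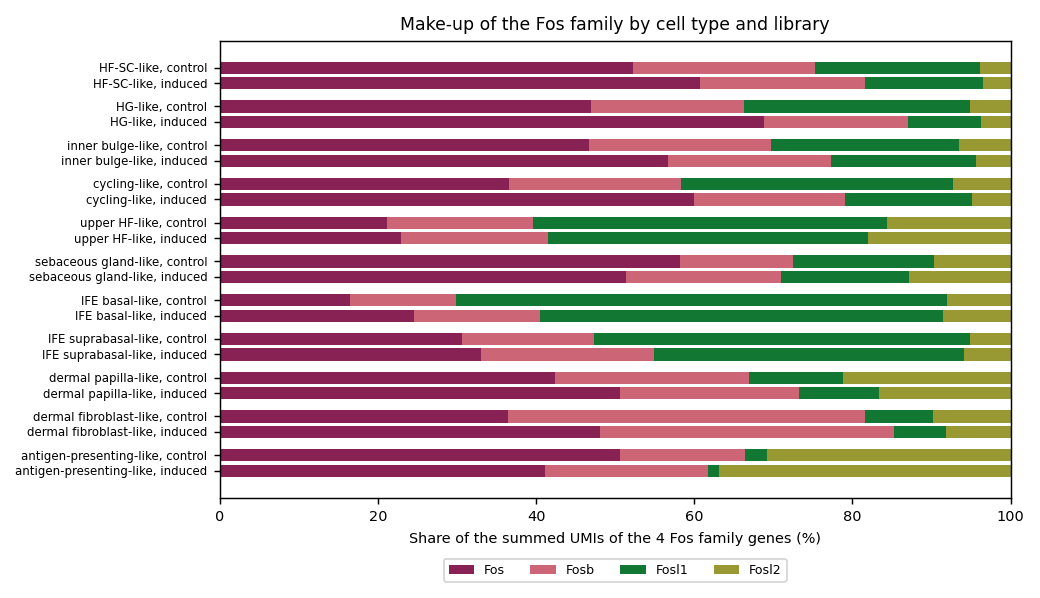
Share (%) of the summed UMIs of Fos, Fosb, Fosl1 and Fosl2 held by each gene, as stacked bars for 11 cell types with the control library above the induced library. The Fosl1 segment is widest in IFE basal-like cells (62.1% and 50.9%) and narrows from 28.5% to 9.27% in HG-like cells.

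Among the Jun family, Jun is the strong activator, Junb is a weaker one that can restrain it, and Jund is the member expressed most steadily in resting cells. Jun was at 2779 and 2272 CPM in HF-SC-like cells and at 183.5 and 289.1 in antigen-presenting-like cells. The ranges of Junb and Jund were narrower. Junb was 3.03-fold higher in the highest than in the lowest of the 11 types in the control library and 5.82-fold in the induced one, and Jund 3.52-fold and 3.29-fold.

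Egr1, a zinc finger factor driven by growth factor signalling through serum response factor, was at 1301 and 1242 CPM in HF-SC-like cells and at 226.3 and 215.2 in IFE basal-like cells. It was nearly absent from antigen-presenting-like cells, at 18.6 and 44.0. Atf3, a stress-induced partner of Jun proteins that often acts as a repressor, was at 2266 and 2484 CPM in HF-SC-like cells and at 273.0 and 285.1 in upper hair follicle-like cells.

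Ier2, a small nuclear protein, was highest in dermal papilla-like cells, the dermal signalling centre of the follicle, at 631.4 and 630.0 CPM. Ier3, which is linked to survival and NF-kappaB signalling, had an order of its own. It was highest by the mean in inner bulge-like cells, at 2471 and 2041, then in upper hair follicle-like cells at 2254 and 2200, and lowest in suprabasal IFE-like cells at 346.1 and 247.7. Over the 11 types, the rank correlation of the control with the induced library ranged from 0.74 for Junb to 0.95 for Jun, where the points share the same 2 libraries and the same gates.

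The 5 genes outside the lists whose level over the 22 type and library points was most like the sum of the members were Tob1, Shf, Pcnx4, Ankrd10 and Id4. Their Pearson correlations on a log2 scale were 0.94, 0.94, 0.90, 0.90 and 0.90, out of 10617 candidate genes, and all 5 were highest in HF-SC-like cells. Tob1, an antiproliferative protein, ranged from 37.3 to 356.5 CPM. The points share libraries, so these correlations are a description.

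In HF-SC-like cells, the levels of all 10 members stayed within a log2 ratio of 0.5 between the libraries. Fos, at 2769 CPM in the control library, was at 3379 in the induced one, for a log2 ratio of 0.29 (interval 0.25 to 0.32). Ier3 was at 1747 and 2096 CPM, a log2 ratio of 0.26 (0.22 to 0.31), and Jund, Junb, Atf3 and Ier2 had ratios of 0.18, 0.14, 0.13 and 0.11. Fosl1 was lower in the induced library at −0.40 (−0.47 to −0.34), as was Jun at −0.29 (−0.33 to −0.25). Fosb and Egr1 stood at −0.08 and −0.07, and both changed sign when cell types were taken from clusters. The gated cells were spread differently over clusters in each library: 75% of control and 60.5% of induced HF-SC-like cells lay in the HF-SC-like cluster, 17.8% and 24.2% in the inner bulge-like cluster and 4.7% and 11.2% in an unnamed one.

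None of the members in HF-SC-like cells reached a log2 ratio of 1 either way, a size that 4.78% of the 9960 genes reached. The counting interval lay above 0 for 6 members and below 0 for 4, where it lay above 0 for 14.5% and below 0 for 10.1% of all genes. At these depths the intervals are narrow and hold counting error only. The shares of all genes, here and below, cover genes with at least 20 UMIs. They were not matched to the members' depth. The members' median log2 ratio was 0.12, beside 0.07 over all genes. Scaled by a median-of-ratios factor it was 0.05, and in cells with under 5% mitochondrial UMIs 0.18.

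In HG-like cells, the quiescent progenitors below the bulge that are the first to divide when a follicle regrows, the libraries stood further apart. Fos was at 1252 CPM in the control and 3762 in the induced library, 3.01-fold higher and a log2 ratio of 1.59 (1.5 to 1.68). Atf3 was at 745 and 1629 CPM, with a log2 ratio of 1.13 (1.01 to 1.25). Ier2 was at 281.9 and 584.3 CPM (1.05), Egr1 at 416.9 and 851.2 (1.03), and Fosb at 515.7 and 999.9 (0.95). These 5 genes were about 2-fold or more higher in the induced library.

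The Jun family was less apart in HG-like cells. Junb was at 1176 and 1868 CPM, a log2 ratio of 0.67 (0.57 to 0.77), and Jun at 1445 and 2144 CPM, a ratio of 0.57 (0.48 to 0.66). Jund was at 1200 and 1087 CPM (−0.14), and its sign turned with the mitochondrial filter and with the gate. Ier3 was at 970.7 and 893.0 CPM (−0.12), with an interval that held 0. Fosl1 was the member lowest in the induced library against control, at 758.6 and 506.9 CPM, a log2 ratio of −0.58 (−0.74 to −0.43).

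A log2 ratio of at least 1 was reached by 4 of the 10 members in HG-like cells, where 6.15% of 7240 genes reached it. The interval lay above 0 for 7 members and below 0 for 2, beside 11.7% and 12.6% of all genes, shares not matched for depth. The members' median was 0.81 and that of all genes −0.00. The members were not set against other lists by any test.

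**Figure D3:**
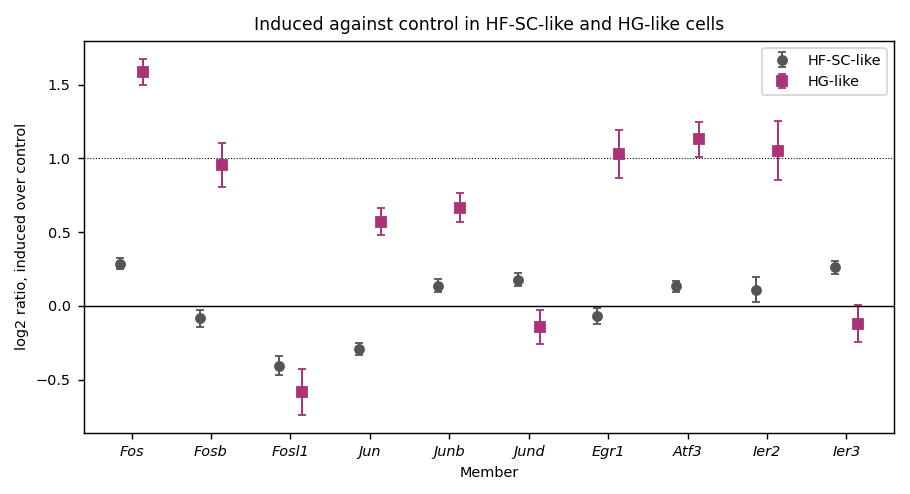
Log2 ratio of induced over control for each of the 10 members in HF-SC-like cells (circles) and HG-like cells (squares), with exact 95% intervals for counting error, and a dotted line at a log2 ratio of 1. Squares of Fos, Egr1, Atf3 and Ier2 lie above the line, and Fosl1 is below 0 in both types.

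The HG-like values rest on few cells. In the control library, 5 of 85 cells held 72.7% of the 1381 Fos UMIs, while in the induced library the top 5 held 30.2% of 4327. Without the 5 highest cells of each library, the Fos log2 ratio was 2.97. The top 5 control cells held 50% of Egr1 and 43.1% of Atf3 UMIs, and without the 5 highest cells of each gene these ratios were 1.58 and 1.49. For Jun they held 21.6%, and the ratio without them was 0.59.

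Shares of cells also stood apart. Once thinned to 5000 UMIs, 42.9% of 84 control HG-like cells (exact interval 32.1 to 54.1) and 65.9% of 85 induced ones (54.8 to 75.8) had a Fos UMI. Before thinning the shares were 63.5% and 85.9%, at median depths of 12218 and 12600 UMIs. Cells with at least 10 Fos UMIs after thinning were 14.3% of control and 41.2% of induced HG-like cells, while in HF-SC-like cells they were 32.3% and 36.9%. In IFE basal-like cells they were 2.39% and 4.33%, and in antigen-presenting-like cells, where 59.7% and 36.4% had at least 1 Fos UMI, 4.84% and 1.52%. None of the 11 types lacked Fos, and its level in free RNA was not measured. The limit of 10 UMIs was set after the values were seen.

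Fosl1 showed the reverse. Its UMIs were found in 85.7% of control and 65.9% of induced HG-like cells after thinning (92.9% and 76.5% before), and in 86.6% and 74.3% of HF-SC-like cells (87.4% and 77.6% before). The intervals of the 2 libraries did not overlap in either type, at 76.4 to 92.4% against 54.8 to 75.8% in HG-like cells. These intervals cover the drawing of cells from 1 library each.

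**Figure D4:**
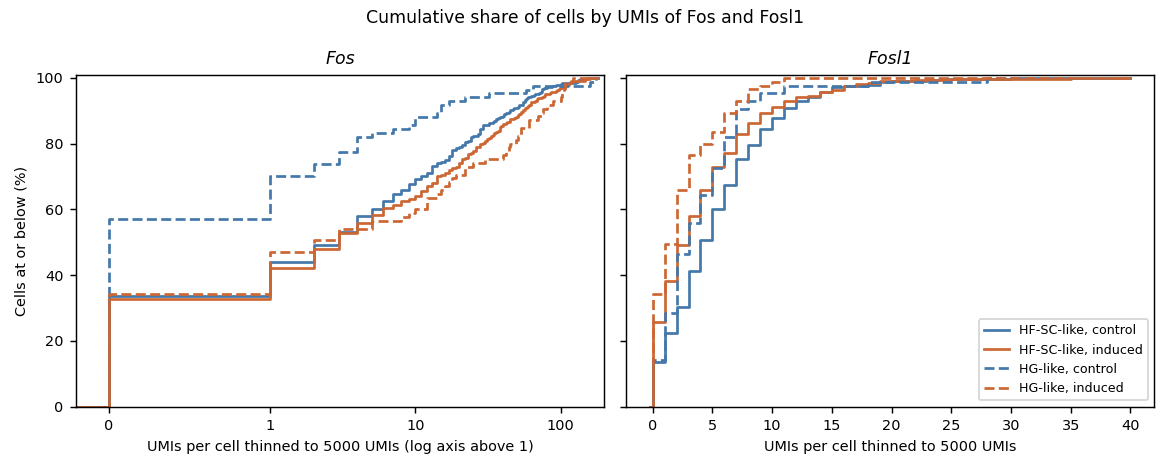
Cumulative share of cells (%) at or below a number of Fos UMIs (left, log axis above 1) and Fosl1 UMIs (right), for cells thinned to 5000 UMIs, in HF-SC-like (solid) and HG-like (dashed) cells of the 2 libraries. The dashed control line for Fos starts highest, since 42.9% of these cells had a Fos UMI, against 65.9% to 67.3% in the other 3 sets.

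The difference in Fos was largest in the cells with most Lgr5 UMIs, without a steady climb below that. Among keratinocytes with no subtype gate, those without an Lgr5 UMI had 705.8 and 1042 CPM of Fos, a log2 ratio of 0.56, in 1463 and 1011 cells. With 1 Lgr5 UMI it was 1265 and 2694 CPM (1.09, 73 and 68 cells). Taken from HG-like and ungated keratinocytes together, cells with 2 to 3 Lgr5 UMIs had 1752 and 3488 CPM (0.99, 50 and 60 cells), and those with 4 or more had 707.8 and 4124 CPM (2.54, 41 and 31 cells). With no limit on Cd34 and Krt24 the HG-like ratio of Fos was 1.02 (180 and 174 cells), and in cells taken from clusters it was 1.26 (202 and 210 cells). Over 17 alternatives it ranged from 1.02 to 2.97, and Fosl1 from −0.996 to −0.38.

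Markers of non-epithelial cells were low in HG-like cells. Summed by panel, the 8 panels of dermal, immune, vascular, glial and pigment cells stood between 0.906 and 43.5 CPM in the control and between 0.869 and 90.4 in the induced library. The summed level of 7 T cell markers was 1.81 CPM in the control and 0.869 in the induced library, with 5 and 6 of them at 0. The 7 dermal papilla markers summed to 19.0 and 1.74 CPM, with 4 and 5 at 0. Other panels were higher in the induced library, with mural or smooth muscle markers at 32.6 and 90.4 CPM, Schwann cell markers at 6.34 and 24.3 and endothelial markers at 0.906 and 3.48. Suprabasal IFE markers summed to 2485 and 1025 CPM over 8 genes, with 0 and 1 of them at 0, and basal IFE markers to 15192 and 12110 over 7, and their part in the HG-like ratios was not tested. In HG-like cells with under 10 UMIs of the basal markers Igfbp3 and Epgn, the median of the members was 0.68 and Fos stood at 1.28.

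Mitochondrial share moved with the levels in HF-SC-like cells. Fos was at 4021 CPM in control HF-SC-like cells with under 5% mitochondrial UMIs, 2042 in those from 5 to under 7.5% and 2605 above that, and the induced library had the same dip, at 4828, 2711 and 3442. Fosl1 and Egr1 were also highest in the lowest class in both libraries. HG-like cells lacked this dip for Fos, with 1309, 1261 and 808.5 CPM in the control and 3960, 3832 and 2524 in the induced library, where the last class held 6 and 11 cells. The median mitochondrial share was 5.52% in control and 5.95% in induced HG-like cells.

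Within HF-SC-like cells, most members varied together. With cells thinned to 5000 UMIs, over 387 of the control HF-SC-like type, the Spearman correlation of Fos was 0.81 with Fosb, 0.80 with Atf3, 0.78 with Egr1 and 0.65 with Jun. In 474 induced cells these were 0.78, 0.68, 0.74 and 0.64. Fosl1 and Ier3 stood outside this group. The correlation of Fos with Fosl1 was −0.09 and −0.14 in HF-SC-like cells, and with Ier3 0.05 and −0.07. The cells of each value share 1 library, and cells are not replicates.

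In HG-like cells the same pairs were looser in the control library. The median of the 45 pairs was 0.22 over 84 control cells and 0.40 over 85 induced cells, beside 0.42 and 0.35 in HF-SC-like cells. It was 0.09 and 0.16 in IFE basal-like cells and 0.16 and 0.17 in upper hair follicle-like cells. Fos with Egr1 stood at 0.39 in control and 0.84 in induced HG-like cells, and Fos with Junb at 0.25 and 0.72. Fos with Fosl1 was −0.16 and −0.33.

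**Figure D5:**
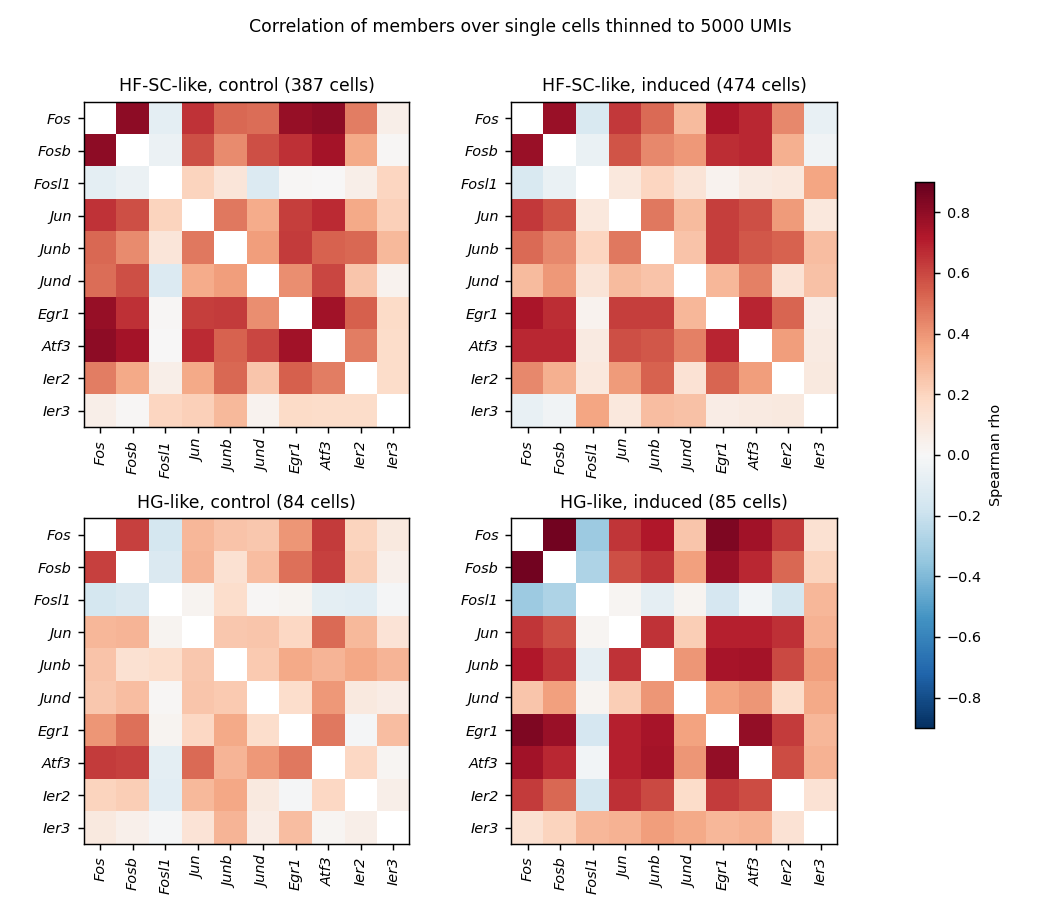
Spearman correlation between members over single cells thinned to 5000 UMIs, in HF-SC-like cells (top) and HG-like cells (bottom) of the control (left) and induced (right) library, with red above and blue below 0. Fos, Fosb, Egr1, Atf3 and Jun form a red group in 3 of the panels and a paler one in control HG-like cells, and the Fosl1 row is pale or blue against Fos.

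In the other keratinocyte types the ratios were smaller or rested on few cells. In IFE basal-like cells Fos was at 206.7 and 346.2 CPM (log2 ratio 0.74), and 0 of 10 members passed a log2 ratio of 1, which 4.24% of genes did. Suprabasal IFE-like cells also had 0, beside 5.04%. Upper hair follicle-like cells were the most alike between the libraries, with ratios from −0.11 for Ier2 to 0.18 for Fos, 0 past the fold and 3.56% of genes past it. Inner bulge-like cells had 0 past the fold beside 8.56%, with Fos at 1047 and 1870 CPM (0.84) in 79 and 240 cells. In that type Jun, Ier3 and Fosl1 changed sign under alternative gates or filters.

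Cycling keratinocyte-like cells, gated on division genes such as Mki67 and Top2a, were the other keratinocyte type with members past the fold. Fos was at 660.5 and 1602 CPM (1.28) and Atf3 at 843.8 and 1744 (1.05) in 126 and 77 cells, so 2 of 10 members passed the fold beside 6.11% of genes. Fosl1 was again lower in the induced library, at −0.53. Of the 11 heat shock genes raised by tissue dissociation, 8 had an interval above 0 in these cells, beside 9.6% of all genes, and 0 below (median 0.30), and their part in the members' ratios was not tested. Without the cells of highest doublet score these ratios were 0.96 for Fos and 0.48 for Atf3, and the members' median went from 0.39 to 0.08.

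Sebaceous gland-like cells were the keratinocyte type in which most members were lower in the induced library. The interval lay below 0 for 7 members, beside 11.8% of all genes, with Fos at 753.7 and 404.4 CPM (−0.90), 0 past the fold and 7.6% of genes past it. In the control library 5 of 68 cells held 74.2% of Fos UMIs, and without the 5 highest cells of each library the ratio was 0.28.

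Among the dermal and immune types, Egr1 was at 319.7 and 682.4 CPM (1.09) and Junb at 1326 and 2162 (0.70) in dermal papilla-like cells, whereas Atf3 was at 553.9 and 373.7 (−0.57). That made 1 of 10 past the fold beside 7.29% of genes. Fos there was at 925.2 and 1480 CPM (0.68) but at −0.38 with cells taken from clusters, and the thinned value of 2.29 left out 61 of 105 control cells. Dermal fibroblast-like cells had 0 past the fold beside 6.12%, with Egr1 at 385.5 and 708.3 CPM. In antigen-presenting-like cells 3 of 10 passed it beside 9.43% of genes. These were Atf3 at 121.9 and 301.7 CPM, Egr1 from 13 to 35 UMIs, a ratio that turned to −1.14 with cells taken from clusters, and Fosl1 from 16 to 8 UMIs.

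The genes around AP-1 were read from 6 companion lists. Of 10 other AP-1 and small Maf partners, 7 had at least 20 UMIs in HF-SC-like cells and 7 in HG-like cells. In HG-like cells 3 had an interval above 0 and 2 below, beside 11.7% and 12.6% of all genes. Fosl2, the fourth Fos family gene, was at 137.8 and 201.7 CPM (0.55), Maff at 0.54 and Mafk at −0.59. In HF-SC-like cells 0 were above and 1 below, beside 14.5% and 10.1% of all genes. The 1 below was Maff at −0.37, while Fosl2 stood at −0.09, Mafk at −0.12, Atf7 at 0.12, Mafg at 0.05 and Atf2 at 0.02.

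Other immediate early genes did not follow the members as a list. Of 19 in HF-SC-like cells, the interval lay above 0 for 5 and below 0 for 11, beside 14.5% and 10.1% of all genes. The median log2 ratio was −0.20. In HG-like cells it lay above for 5 and below for 5, beside 11.7% and 12.6%, with a median of −0.01. Cyr61, a secreted matrix protein induced by YAP and serum response factor, was at 6279 and 3481 CPM (−0.85) in HF-SC-like cells and at 2523 and 1262 (−0.9997) in HG-like cells. Srf, the serum response factor itself, stood at −0.84 in HF-SC-like cells, and the nuclear receptor Nr4a2 at −1.04. Klf2, Egr2 and Gadd45g had the highest ratios there, at 0.51, 0.41 and 0.38. In HG-like cells the nuclear receptor Nr4a1 was at 470.4 and 841.7 CPM (0.84) and Rhob at 0.69, while Klf10 stood at 0.10, Ier5 at −0.17 and Sgk1, a kinase, at −0.51.

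The feedback brakes, genes that end the early response, included the highest ratios of the companions in HG-like cells. Of 15 with enough UMIs, 7 lay above 0 and 6 below, beside 11.7% and 12.6% of all genes. Socs3, an inhibitor of cytokine signalling, was at 121.4 and 386.0 CPM (1.66), Dusp1, a phosphatase that switches off MAP kinases, at 314.5 and 809.5 (1.36), and Btg2 at 372.5 and 922.5 (1.31). Dusp6, another MAP kinase phosphatase, was lower at −0.64, as were Btg1 at −0.46 and Tnfaip3 at −0.39. In HF-SC-like cells 8 of 16 lay above 0 and 5 below, beside 14.5% and 10.1% of all genes. Socs3 was at 106.0 and 249.5 CPM there (1.23), followed by Zfp36l2 at 0.36 and Nfkbia at 0.35, and Dusp5, Dusp6 and Spred1 stood at −0.56, −0.48 and −0.37.

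Most upstream kinases and factors had an interval that held 0. Of 13 with enough UMIs in HF-SC-like cells, 1 lay above 0 and 3 below, beside 14.5% and 10.1% of all genes. Above was Mapk3, the kinase ERK1, at 0.36, and below were Srf, Mapk8 at −0.41 and Elk4 at −0.35. Map2k1 stood at 0.10. In HG-like cells 0 of 11 lay above and 2 below, beside 11.7% and 12.6% of all genes. No gene of the list reached the 200 UMIs needed to be named there.

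Most measured genes known as AP-1 targets in keratinocytes had lower levels in the induced library in HF-SC-like and HG-like cells. In HG-like cells 5 of 13 had enough UMIs, and the interval lay below 0 for all 5, beside 12.6% of all genes. Plaur, the urokinase receptor, was at 125.1 and 62.6 CPM (−0.99), Hbegf, a growth factor ligand of the EGF receptor, at 600.9 and 393.9 (−0.61), Ptgs2, the prostaglandin synthase, at −0.46 and Cd44 at −0.26. In HF-SC-like cells 6 of 9 lay below, beside 10.1% of all genes, and 1 above, with a median of −0.68. Plaur stood at −1.80 there, Ptgs2 at 1122 and 570 CPM (−0.98), Hbegf at −0.68 and Cd44 at −0.17. In IFE suprabasal-like cells 8 of 11 lay above 0 and 3 below (median 0.92), beside 12.1% and 11.3% of all genes. In IFE basal-like cells 6 of 12 lay above and 2 below (0.32), beside 13.7% and 10.7%.

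Heat shock genes raised by tissue dissociation were given as the measured sign of handling beside these ratios. In HG-like cells 4 of 11 intervals lay above 0 and 3 below, beside 11.7% and 12.6% of all genes, and the median log2 ratio was 0.11. The summed level had the opposite sign, at 14690 CPM in the control and 12673 in the induced library, with Hspb1 alone at 6452 and 4222. Hspe1, Hspa1b and Hspd1 stood at 0.50, 0.41 and 0.24, and Hspb1, Dnaja1 and Hsp90aa1 at −0.61, −0.30 and −0.25. In HF-SC-like cells the sum was 22109 and 19928 CPM. There 4 intervals lay above 0 and 1 below, beside 14.5% and 10.1% of all genes, with a median of 0.07. The highest were Hspa1a at 665.7 and 944.2 CPM (0.50), Hspa1b at 0.25 and Hspe1 at 0.20. Hsp90aa1 stood at 0.00, Dnajb1 at −0.01 and Hspb1 at −0.36. Over all kept cells the interval lay above 0 for all 11 heat shock genes (median 0.21), beside 34.7% of all genes. It did so for 10 in IFE basal-like (beside 13.7%) and 9 in sebaceous gland-like cells (8.89%), where 1 lay below in each. In IFE suprabasal-like cells it was 8 (12.1%) and in upper hair follicle-like cells 6 (9.67%). How much of any member's level came from the digestion of the skin was not tested.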

How the data were processed

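Back skin of the control and induced groups was measured with 10x Genomics single-cell libraries, 1 per group, aimed at 5000 cells each. The authors deposited raw counts of UMIs per gene and barcode, made with Cell Ranger (version 3.0.1 in the file headers) on build mm10, without normalization. Cells with more than 200 and fewer than 5000 genes and under 10% mitochondrial UMIs were kept, as in the study's methods. Cell types were set by marker UMIs per cell, the minimum of each gate was chosen after the counts were seen, cells that passed gates of more than 1 type outside the stated order were left out, and doublets were otherwise kept. Counts were summed per type and library and divided by the type's total (CPM). Log2 ratios were formed where a gene had 20 or more UMIs over both libraries, after adding 0.5 to each count. Intervals are exact at 95% (Poisson, conditional binomial, Clopper-Pearson for shares) and cover counting error only. With 1 library per group, no test was made and no p is given. Named genes were the members, the 3 highest and 3 lowest of each companion list with at least 200 UMIs in HF-SC-like and HG-like cells, and the 5 genes most like the summed members. A gene that this rule named in the list of upstream kinases is not reported here. The members and lists were chosen with earlier results of these data known. Alternatives to filter, scaling, doublets, gates and clusters (Leiden, leidenalg 0.10.2, computed without members and companions) were run in Python 3.11.15 with scipy 1.17.1 and scanpy 1.11.5. The interval code was tested on simulated Poisson counts, which lack the spread between cells found in these data.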

Additional observations from a re-analysis of the deposited data

Results flagged for a closer look

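With 1 library per group, 4 members differed in direction between HF-SC-like and HG-like cells, and the difference was not tested. The log2 ratio in HG-like cells exceeded that in HF-SC-like cells by 1.096 for Egr1 (1.03 against −0.07), by 1.04 for Fosb (0.95 against −0.08) and by 0.86 for Jun (0.57 against −0.29). For Jund the HG-like value minus the HF-SC-like value was −0.32 (−0.14 against 0.18). Counting intervals lay on opposite sides of 0 in these types for 117 of 7185 genes, which is 1.63%. Those genes had at least 20 UMIs in each type and were not matched to the members' depth, on which interval width depends. The HF-SC-like values of Egr1 and Fosb and the HG-like value of Jund changed sign under at least 1 alternative.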

How the results depend on the processing

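With 1 library per group no replicate could be left out, and no value here has a test. No paired analysis was possible because each group has 1 library and no result comes from a test. Over 17 alternatives, 4 of them chosen after seeing the data, the HG-like log2 ratio of Fos ranged from 1.02 to 2.97 and that of Fosl1 from −0.996 to −0.38. Settings with at least 100 UMIs or with no minimum change only which genes pass, so they could not move a single gene's ratio. They are counted here and in the values below. Sign changes were counted only where the main interval did not hold 0, so Ier3 in HG-like cells, at up to 0.31, is not among them. Of 1561 recomputed values of single genes, 29 changed sign in this way, and the cause was not tested. With types from clusters, these were Egr1 0.051 and Fosb 0.072 in HF-SC-like, Egr1 −1.14 in antigen-presenting-like, Fos −0.40 in dermal fibroblast-like, Fos −0.38 and Fosb −0.19 in dermal papilla-like, Fosl1 −0.19, Ier3 0.22 and Jun 0.17 in inner bulge-like, Jun 0.064 in sebaceous gland-like and Junb 0.019 in upper hair follicle-like cells. With under 5% mitochondrial UMIs, they were Fos 0.41 in antigen-presenting-like, Fosl1 −0.13 and Jun 0.38 in inner bulge-like, Ier3 0.083 in cycling-like, Junb 0.027 in IFE suprabasal-like and Jund 0.018 in HG-like cells. Without the 5 highest cells, they were Atf3 0.076 in dermal fibroblast-like, Fos 0.28 and Fosb 0.0031 in sebaceous gland-like, Ier3 0.072 in inner bulge-like and Junb −0.017 in cycling-like cells. The others were Fos −0.084 in IFE suprabasal-like (thinned), Ier3 0.042 in cycling-like (every barcode), Jun −0.0073 in dermal fibroblast-like (mean over cells), Jun 0.12 in inner bulge-like and Junb 0.013 in upper hair follicle-like (gate minimum doubled), Junb −0.10 in cycling-like (without top doublet scores) and Jund 0.0028 in HG-like cells (no limit on Cd34 and Krt24).

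The members' median log2 ratio in HG-like cells was 0.66 with a minimum of 1 Lgr5 UMI and 1.08 with the gate minimum doubled. It was 0.50 with no limit on Cd34 and Krt24 and 0.68 with under 10 UMIs of Igfbp3 and Epgn. In HF-SC-like cells it was 0.051 with a median-of-ratios factor. With clusters it was 0.23 in IFE basal-like, −0.053 in IFE suprabasal-like, 0.024 in dermal papilla-like, 0.48 in inner bulge-like and 0.032 in upper hair follicle-like cells. With under 5% mitochondrial UMIs it was 0.18 in HF-SC-like, 0.18 in IFE suprabasal-like, 0.59 in cycling-like, 0.87 in inner bulge-like and −2.02 in sebaceous gland-like cells. Without the 5 highest cells it was 0.033 in IFE basal-like, 0.23 in cycling-like, 0.57 in inner bulge-like and −0.040 in sebaceous gland-like cells. It was −0.078 in IFE suprabasal-like and 0.60 in dermal papilla-like cells when thinned, 0.23 (every barcode) and 0.078 (without top doublet scores) in cycling-like, −0.63 in sebaceous gland-like with the gate minimum doubled and 0.040 in upper hair follicle-like cells as a mean over cells. In HG-like cells 10.1% of all genes passed a log2 ratio of 1 either way, 3.99% with at least 100 UMIs and 30.6% with no minimum. Types with under 100 cells limit what a ratio can show.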
